A study of Rattus norvegicus with 24 samples.

Results

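The liver response that Geneva and Hayward kiwifruit shared was measured by setting the 16 rats fed either fruit against the 8 rats fed cholesterol alone. Male Wistar rats received a semi-synthetic diet with 1% cholesterol for 42 days, either alone (Ch, 8 rats) or with 5% of freeze-dried kiwifruit of the cultivar Geneva (ChGENE, 8 rats) or Hayward (ChHAYW, 8 rats). All 24 rats therefore ate cholesterol, and no arrays of rats without it were analysed here. The labels give no age. Total liver RNA of each rat was labelled and hybridised to a 1-colour Agilent rat array, and the labels count each of the 8 arrays of a diet as a biological replicate. Of the 30367 probes that are not controls, 14045 were marked by the scanner software as well above background on all 24 arrays, and 10317 of these had a difference from Ch of the same sign in both cultivars. These 10317 probes, which stand for 7116 genes with a symbol, are described here, and the remaining 3728 bright probes went in opposite directions. The directions that chose them come from the same arrays as the test below, so the share of them that passed is a description. ChGENE and ChHAYW were also set against the same 8 Ch rats, so a deviation of the Ch rats alone gives both cultivars the same sign.

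The liver adapts to dietary cholesterol in a few well known ways. It lowers its own sterol synthesis through the SREBP transcription factors, stores cholesterol as esters, and turns it into bile acids through cytochrome P450 enzymes such as Cyp7a1 and Cyp8b1. Bile acids in turn activate the nuclear receptor FXR, which induces the repressor Nr0b2 (SHP) and so restrains these enzymes. Fatty acid synthesis and desaturation are driven by SREBP-1c and by the oxysterol receptor LXR, and fatty acid breakdown by PPAR-alpha. Kiwifruit supplies fibre, polyphenols and vitamin C.

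The level of a probe is its log2 signal after subtraction of the 75th percentile of its array, so that 0 is that percentile, and a difference is the mean of the ChGENE and ChHAYW levels minus the Ch level on this log2 scale. To pass (to be called, in the plots), a probe needed an adjusted p under 0.05 (Benjamini-Hochberg, over all probes) and a fold change of at least 1.3. The 75th percentile of the unscaled signal was lower on the Ch arrays (median 421, range 188 to 653) than on the ChGENE (median 675, 388 to 775) and ChHAYW arrays (median 731, 409 to 1049). Ch 4 was the dimmest array. Each diet had a slide of its own for its 8 arrays, and the effects of diet and slide cannot be told apart. The number of rats limits the precision.

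In each diet 1 pair of arrays was closer than all others. Over the 14045 bright probes the log2 differences between the arrays of a pair had a spread (median absolute deviation, scaled to an SD) of 0.15 for ChHAYW 6 and 7, 0.15 for ChGENE 4 and 5 and 0.17 for Ch 1 and 2. The other 81 pairs within a diet had 0.25 to 0.91 (median 0.42). Deviations from the diet mean had r = 0.91 for ChGENE 4 and 5, 0.81 for ChHAYW 6 and 7 and 0.63 for Ch 1 and 2. For Ch 4 and 7, not a close pair by spread, r was 0.66. Paired spots of a probe on the same array differed with a spread of 0.09 to 0.13, less than the 3 pairs. Spots of 1 array share a hybridisation, so this does not separate repeat runs from separate rats. Nothing in the labels marks the arrays of the 3 pairs as repeat runs, and the array values alone do not show whether they come from separate rats. If they do not, p-values are too small and a diet has 7 rats. In what follows each array counts as 1 rat, and the calls with each pair averaged to 1 sample, an alternative chosen after the data were seen, are given beside the main ones.

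Of all 30367 probes, 4262 passed (14.0%), 330 of them higher (1.09%) and 3932 lower (12.9%) with kiwifruit. Most of the lower ones were dim, since 3303 of them were not above background on every array. Of the 14045 probes above background on all arrays, 790 passed (5.62%), 161 higher (1.15%) and 629 lower (4.48%). All but 1 of these had the same sign in both cultivars, so that 160 probes rose and 629 fell, from 135 and 387 genes with a symbol, while 251 of the 789 had none. The rises had a median of 0.52 (0.38 to 1.77) and the falls a median of −0.56 (−2.34 to −0.38). Over all probes above background the median difference was −0.04. The 160 rises had a median of 0.58 in ChGENE and 0.49 in ChHAYW, and the 629 falls −0.58 and −0.56. In the fit of all 3 diets, ChGENE against Ch called 2863 of all probes (9.43%), among them 408 of the 789. ChHAYW against Ch called 0 (0%), with a smallest adjusted p of 0.0618 from limma. Of the 789, 630 had an unadjusted p under 0.05 and the same minimum fold there. The pooled test that chose the 789 uses the same ChHAYW and Ch arrays, so that count is partly built in and is no separate support.

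**Figure D1:**
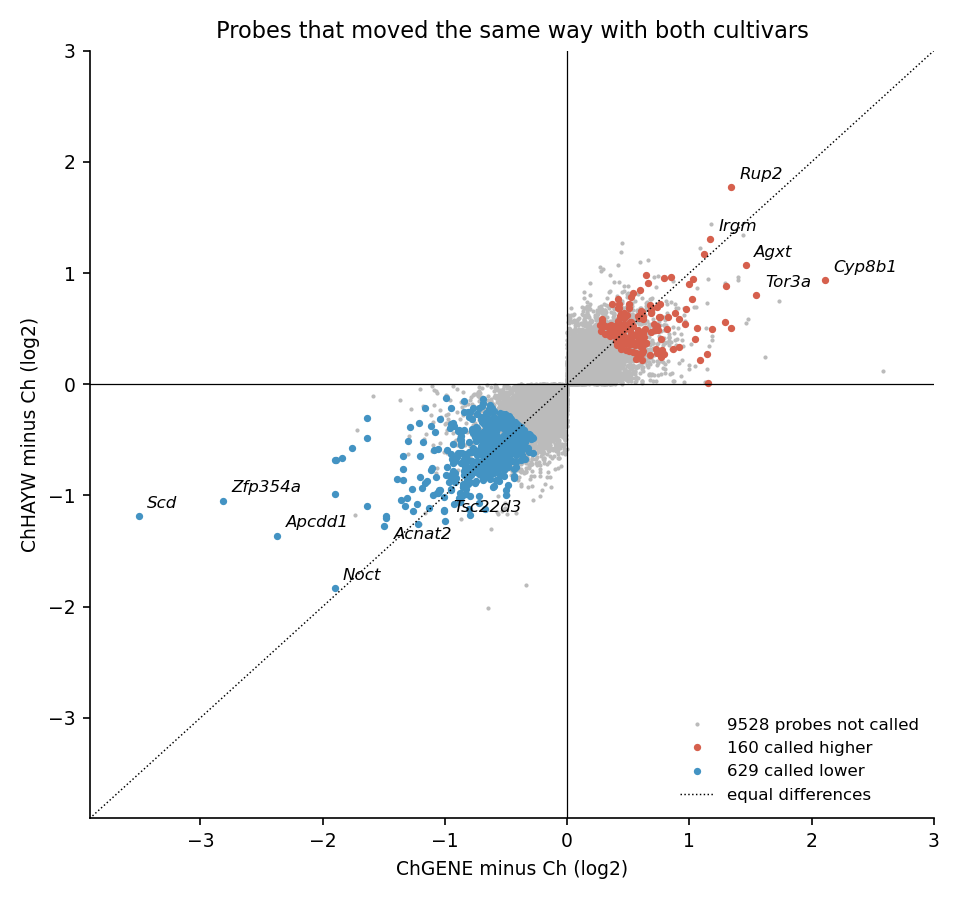
Each point is 1 of the 10317 probes, with its ChGENE minus Ch difference on the x axis and its ChHAYW minus Ch difference on the y axis (log2). The 160 probes that passed as higher (red) and the 629 that passed as lower (blue) scatter around the dotted line of equal differences, with Scd, Zfp354a and Cyp8b1 farther from 0 in ChGENE; both axes use the same 8 Ch rats.

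Few probes separated the cultivars past the threshold. ChGENE against ChHAYW called 8 of all probes (0.0263%), and 1 of them is a member of the shared set. This was Cdr2, an onconeural antigen, whose difference was 1.15 in ChGENE and 0.01 in ChHAYW, so that only its sign was shared (adjusted p = 0.0426 for the cultivars). Just outside the rule lay Tsc22d1, a leucine zipper protein, with 1.497 in ChGENE and −0.07 in ChHAYW (adjusted p = 0.0397 for the cultivars).

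The calls depended on the close array pairs, on single Ch rats and on the scaling of the arrays. With each close pair averaged, which leaves 7 samples per diet, 47 probes passed as higher and 290 as lower, 333 of them among the 789. All but 1 of the 789 kept their direction in both cultivars and 734 had an adjusted p under 0.1, and the smallest adjusted p of ChHAYW against Ch was 0.138. Of the passing genes given below, Rup2, Il1a, Plbd1, Onecut1, Acot1, Cpt1b, Noct, Dclk3, Cidec, Abhd5, Slc2a2, Gpi, Pc, Por, Gpx4, Sod1, Zfp36, Col1a2, Mmp2, Tf, Rbp4, Rplp0, Rpsa, Ndufa4 and Slc4a1 did not pass then. Without Ch 4 the number of probes that passed fell from 160 higher and 629 lower to 7 and 55. Of the 789, 60 passed again, all kept their direction and 591 had an adjusted p under 0.1. The refits with averaged pairs and without Ch 4 reuse arrays that chose the 789. The kept directions and the counts under 0.1 are therefore largely built in and are no separate support. Without Ch 7 the probes that passed were 46 higher and 225 lower, and without Ch 3 they were 291 and 896. Quantile normalization left 9 higher and 37 lower, and cyclic loess 9 and 44. Scaling to the median of each array gave 98 higher and 865 lower, and scaling to the 75th percentile of the probes above background 252 and 283. Scaling to the spike-in RNAs gave 138 higher and 2 lower and raised the median difference of all probes by 0.52. Differences below are relative to each array's 75th percentile, and on the spike-in scale 388 of the 629 falls were still below 0. With the array's 75th percentile as a covariate only 3 probes passed.

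**Figure D2:**
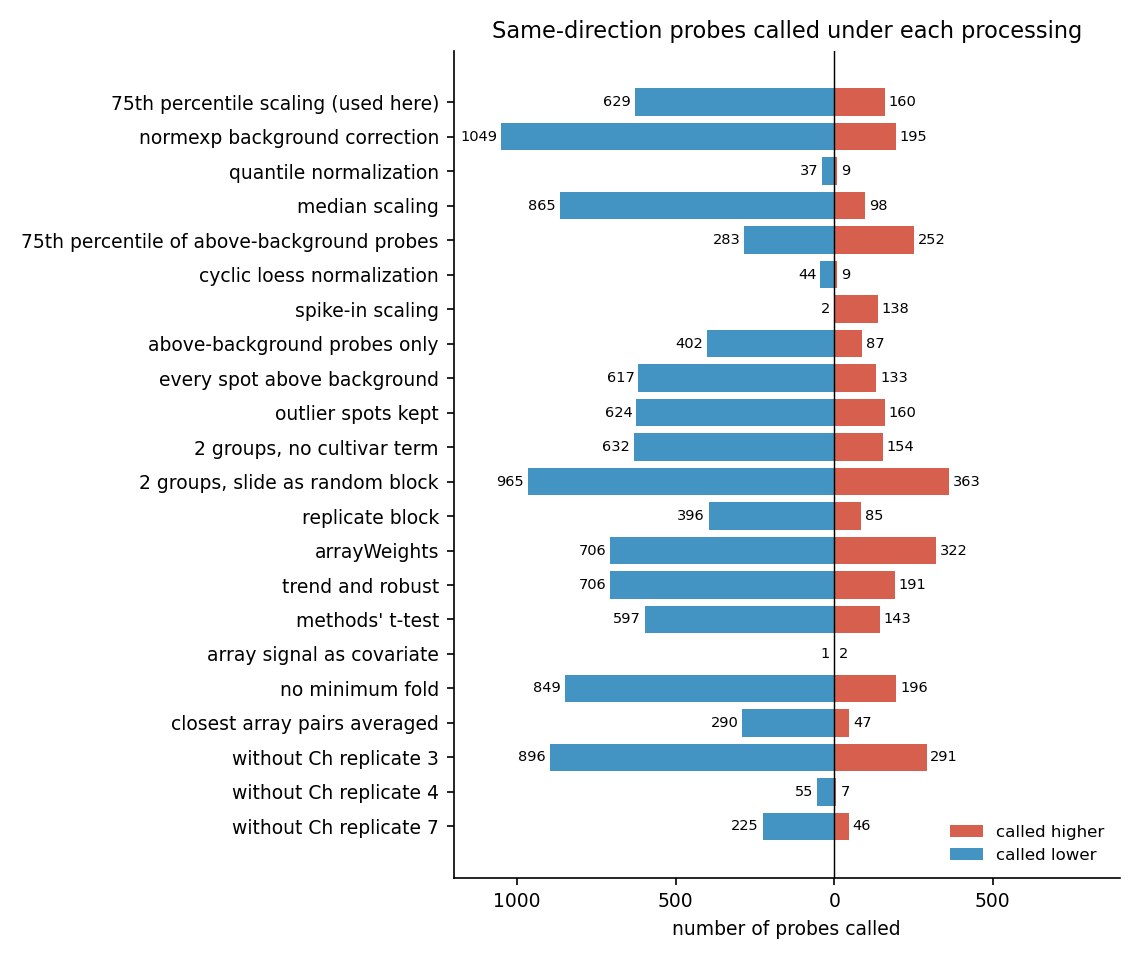
Number of same-direction probes that passed as higher (red, to the right) and lower (blue, to the left) under each processing, with the counts at the bar ends. Of the 789 probes in the top bar, 60 passed again without Ch 4, where 62 passed in all.

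A set of 32 probes passed with the 75th percentile scaling, with quantile normalization, with cyclic loess and without Ch 4. It was chosen after these values were seen and gets no test of its own. All 32 passed in each of the 24 fits that left out 1 rat, and with the close array pairs averaged (highest adjusted p = 0.0397 from limma). The fit without Ch 4, which helped to choose the set, is 1 of these 24 and had the fewest calls among them. These refits reuse the arrays that chose the set, so passing them is largely built in and is no separate support. Of them 6 were higher and 26 lower with kiwifruit, and 26 belong to genes with a symbol. The 6 that rose were Abcg3 and Abcg3l4 (ABC transporters), Galt (galactose breakdown), Loxl2 (collagen crosslinking), Trim47 (a ubiquitin ligase) and Ddx39b (an RNA helicase of mRNA export). Those that fell include Apcdd1 and Sp5 of the Wnt pathway, Scd and Gpat4 of lipid synthesis, the glucose transporter Slc2a1, the sugar nucleotide transporter Slc35d1, the glucocorticoid-induced Tsc22d3, the antiproliferative Tob2, the growth factor binding protein Crim1, the cadherin Cdh24, lamin B1 (Lmnb1), the scavenger receptor Scart1, the guanine nucleotide exchange factor Mcf2l, the deubiquitinase Mindy2, the prolyl isomerase Fkbp9, the glutaminyl cyclase Qpctl, Snapc5 of small nuclear RNA transcription, and Tapt1. Other probes of some of these genes did not pass although above background on all arrays: their differences were 0.01 for Qpctl (adjusted p = 0.962), 0.11 for Snapc5 (adjusted p = 0.589), −0.03 for Slc35d1, with opposite signs in the cultivars, and −0.48 for Crim1 (adjusted p = 0.0536). Further probes that did not pass were above background on fewer arrays. A second probe of Tapt1, above background on 20 arrays, had −0.30, and a second probe of Scart1, on 5 arrays, had −0.35. Other probes of Mcf2l had 0.07 (8 arrays), with opposite signs in the cultivars, and −0.74 (1 array). With spike-in scaling all 6 rises but only 2 of the 26 falls passed, Apcdd1 being the only named one, and Qpctl, Fkbp9, Mindy2 and Gpat4 turned to 0.07, 0.06, 0.04 and 0.01. With the array signal as a covariate 0 of the rises and 1 of the falls passed, none of those named here. With another background correction (normexp), Abcg3l4 (0.23), Ddx39b (0.27), Qpctl (−0.37) and Fkbp9 (−0.37) were among those that did not pass.

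Abcg3 separated the kiwifruit rats from the Ch rats without overlap. Its level ranged from −2.05 to −1.34 (median −1.51) in Ch, from −1.11 to −0.80 (median −0.99) in ChGENE and from −1.30 to −0.53 (median −0.94) in ChHAYW. All 16 kiwifruit rats lay above all 8 Ch rats. Such a gap was found at 2 of the 30367 probes (0.00659%), and the other, without a current symbol, lay below the Ch rats. The pooled difference of Abcg3 was 0.62 (standard error 0.10, adjusted p = 0.0132), with 0.61 in ChGENE and 0.64 in ChHAYW. A second probe of Abcg3 had 0.33 and did not pass (adjusted p = 0.327). Abcg3l4, a like gene on the same chromosome (chr14:4849938-4899400 against chr14:5068275-5143762 on GRCr8), rose by 0.66 (adjusted p = 0.0142) at 1 probe, but another, with 0.27, missed the threshold (adjusted p = 0.216). The probes of such closely related genes may bind RNA of both. Galt had a Ch median of 2.29 (1.56 to 3.16), a ChGENE median of 3.63 (3.15 to 4.25) and a ChHAYW median of 3.01 (2.48 to 3.27). It rose by 0.84, and 7 ChGENE but only 1 ChHAYW rat lay above all Ch rats. Trim47 had medians of −0.17, 0.63 and 0.37 in the same order, with 15 of the 16 kiwifruit rats above the highest Ch rat.

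In the list of fatty acid synthesis and desaturation Scd had the largest fall. Of 15 listed genes, 13 were above background and 10 moved the same way, 8 of them downward. The fall passed for 3 and the rise for 1 (30.8% of the 13), and the median difference was −0.28. In the list counts that follow, genes that rose or fell are those that passed. Over all 9375 genes above background, each by its brightest probe, 119 rose and 358 fell (5.09%) with a median of −0.03, the background for each list count below. For the desaturase Scd, which makes monounsaturated fatty acids, the level was −0.22 to 3.54 in Ch (median 1.72), −3.28 to −0.18 in ChGENE (median −2.24) and −1.14 to 1.85 in ChHAYW (median −0.07). Of the ChGENE rats 7 lay below every Ch rat, but only 1 ChHAYW rat did, so the Hayward rats overlapped with Ch. Scd fell by 2.34 (standard error 0.46, adjusted p = 0.0142), by 3.50 in ChGENE and by 1.19 in ChHAYW, and the cultivars did not differ past the threshold (adjusted p = 0.188). Srebf1, which encodes SREBP-1c, fell evenly, by 0.82 in ChGENE and 0.86 in ChHAYW (pooled standard error 0.21, adjusted p = 0.0177). Its Ch rats ranged from 2.92 to 4.29 (median 3.63), the ChGENE rats from 2.03 to 3.60 (median 2.86) and the ChHAYW rats from 2.08 to 3.17 (median 2.85), and 10 of the 16 kiwifruit rats lay below all Ch rats. Without Ch 4 its adjusted p was 0.0522. Fatty acid synthase (Fasn) fell by 0.61. Thrsp and the acetyl-CoA carboxylase Acaca had −0.82 and −0.48 and did not pass, and the elongase Elovl5 rose by 0.78 (adjusted p = 0.0211).

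Sterol synthesis genes had smaller differences, most of them below 0. Of 20 listed genes, 19 were above background and 17 moved the same way, 14 of them downward. The fall passed for 3 (15.8%), none rose, and the list median was −0.22. Idi1, the isopentenyl diphosphate isomerase, fell by 0.45 (adjusted p = 0.0182), evenly in ChGENE (−0.46) and ChHAYW (−0.43). Msmo1 (−0.37) and Fdft1 (−0.27), a sterol oxidase and squalene synthase, had adjusted p of 0.0249 and 0.0277 but stayed under the minimum fold. Gpat4, the acyltransferase that starts triglyceride synthesis, fell by 0.51, with medians of 1.90, 1.28 and 1.44 in Ch, ChGENE and ChHAYW. Of the 16 listed genes of triglyceride synthesis and lipoprotein assembly 15 were above background, 0 passed, and the median was −0.03. In the lipid droplet list 2 of 11 rose and 0 fell, with a median of −0.11. The 2 that rose were Cidec (0.53), a droplet fusion protein, and Abhd5 (0.50), the coactivator of triglyceride lipase, and neither passed without Ch 4.

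Bile acid genes moved in both directions. Cyp8b1, the sterol 12-alpha-hydroxylase that makes cholic acid, had Ch levels of 0.16 to 4.57 (median 2.29), ChGENE levels of 3.79 to 5.27 (median 4.27) and ChHAYW levels of 2.88 to 4.06 (median 3.01). The Ch rats were widely spread and the kiwifruit rats were not, with only 2 of the 16 above the highest Ch rat. Cyp8b1 rose by 1.52 (standard error 0.38, adjusted p = 0.0177), by 2.11 in ChGENE and 0.94 in ChHAYW. Nr0b2, the repressor SHP, fell by 1.104 (standard error 0.26, adjusted p = 0.0177), with a Ch median of 5.37 (4.19 to 6.42), a ChGENE median of 4.18 (3.16 to 4.64) and a ChHAYW median of 4.72 (3.64 to 5.30). All 3 groups overlapped for Nr0b2. Slc27a5, which activates bile acids for conjugation, fell by 0.79 (adjusted p = 0.0142), and 7 ChGENE and 5 ChHAYW rats lay below every Ch rat. Cyp7a1, the rate-limiting enzyme of bile acid synthesis, had −1.73 in ChGENE and −1.18 in ChHAYW and did not pass (adjusted p = 0.0551). Of the 12 listed genes of bile acid synthesis and conjugation, all above background, 1 rose and 2 fell, with a median of −0.22. Of the 14 listed bile acid and sterol transporters 11 were above background and 0 passed. The export pump Abcc2 came nearest (0.37, adjusted p = 0.0648). Without Ch 4 the adjusted p of Cyp8b1 and Nr0b2 was 0.0522 each, while Slc27a5 still passed. Slc27a5 did not pass with quantile normalization (−0.45) or cyclic loess (−0.52), and neither did Cyp8b1 and Nr0b2.

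**Figure D3:**
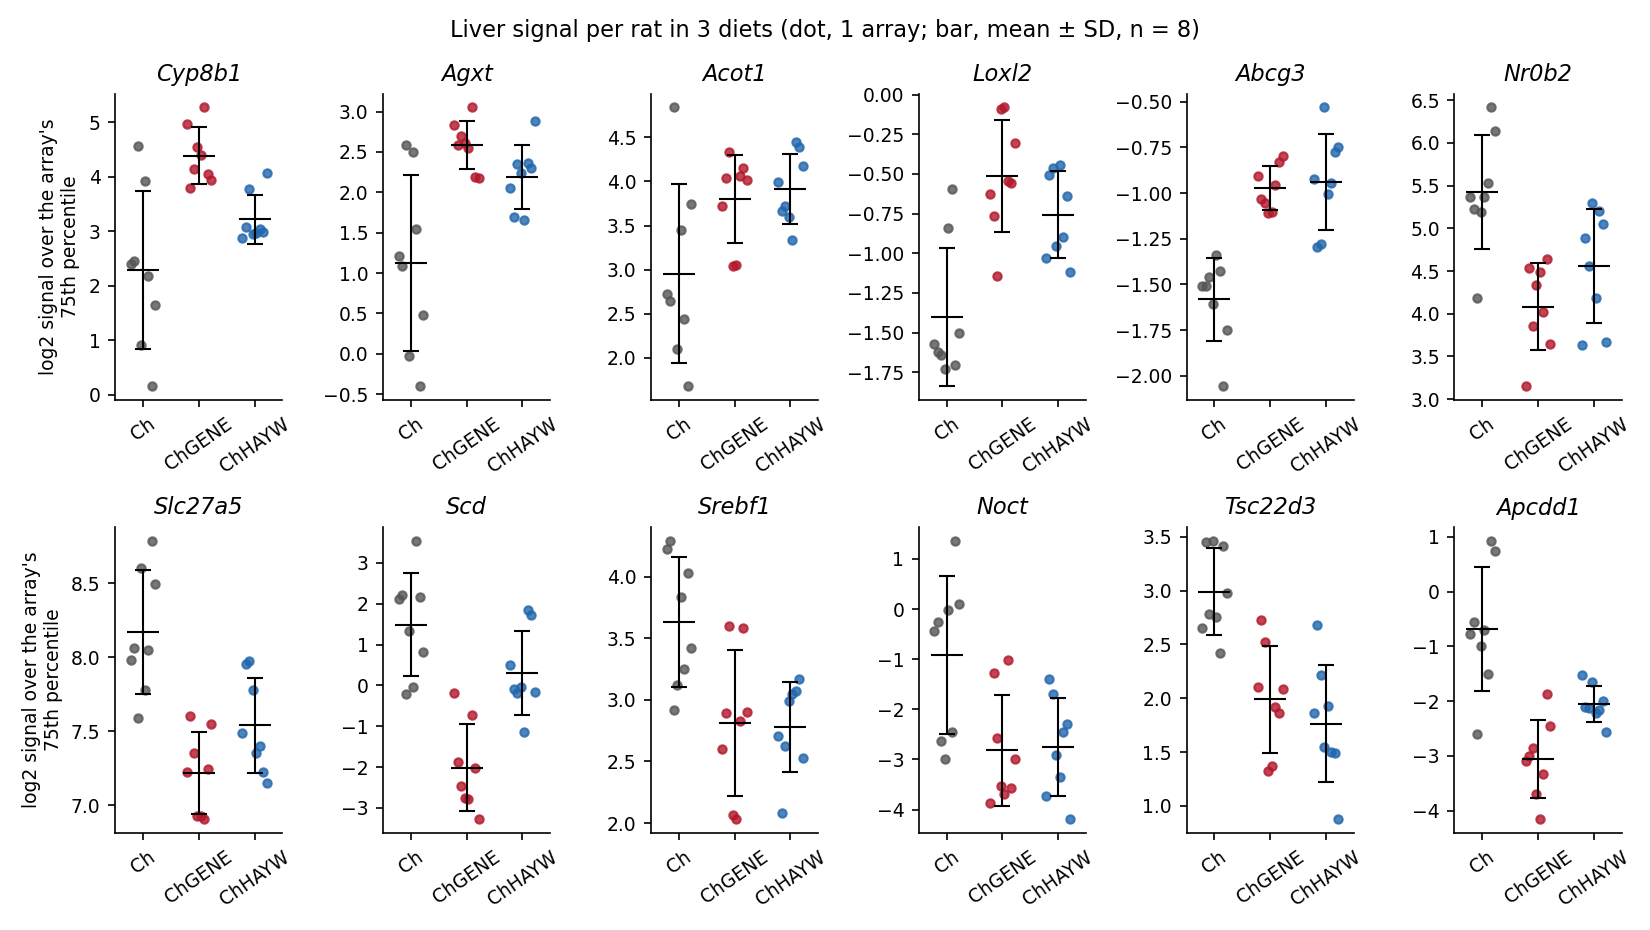
Level of 12 genes (log2, with the 75th percentile of the array at 0, y axis) in each rat by diet (x axis), with 1 dot per rat and the mean ± SD of 8 rats. For Abcg3 all kiwifruit rats lie above all Ch rats, while for Cyp8b1, Agxt and Acot1 the Ch rats are spread widely and the groups overlap.

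Stretches of 4 of these genes are shown because they pair known regulators with known targets that passed here, namely Srebf1 with Scd, both lower, and Nr0b2 (lower) with Cyp8b1 (higher). The pairs were picked after their values were seen. Cyp7a1, also restrained by Nr0b2, was lower in both cultivars and did not pass. A link within the pairs was not tested. The sequences of the 4 genes are from RefSeq on the GRCr8 assembly, 250 bases each before the start that its promoter table gives, read 5′ to 3′ on the strand of the gene. For Scd the annotated gene (chr1:253218968-253232101) reaches beyond that start, so its window lies inside the gene interval. The windows of Srebf1, Scd, Nr0b2 and Cyp8b1 lie at chr10:45529165-45529414 (minus strand), chr1:253231732-253231981 (minus strand), chr5:151062910-151063159 (plus strand) and chr8:130457593-130457842 (minus strand). Capitals mark matches, on either strand, to the letters of the CCAAT box (CCAAT), the GC box (GGGCGG), the E-box (CACGTG) or the antioxidant response element (TGACNNNGC).
Srebf1: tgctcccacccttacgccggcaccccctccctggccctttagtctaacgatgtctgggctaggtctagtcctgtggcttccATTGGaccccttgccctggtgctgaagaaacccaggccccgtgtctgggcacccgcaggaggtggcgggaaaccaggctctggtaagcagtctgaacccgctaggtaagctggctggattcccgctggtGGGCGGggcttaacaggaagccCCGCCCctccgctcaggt
Scd: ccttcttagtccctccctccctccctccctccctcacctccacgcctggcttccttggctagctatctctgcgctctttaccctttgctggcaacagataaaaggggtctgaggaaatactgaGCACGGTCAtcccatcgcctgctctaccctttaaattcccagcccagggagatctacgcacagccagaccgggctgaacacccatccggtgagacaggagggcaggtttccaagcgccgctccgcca
Nr0b2: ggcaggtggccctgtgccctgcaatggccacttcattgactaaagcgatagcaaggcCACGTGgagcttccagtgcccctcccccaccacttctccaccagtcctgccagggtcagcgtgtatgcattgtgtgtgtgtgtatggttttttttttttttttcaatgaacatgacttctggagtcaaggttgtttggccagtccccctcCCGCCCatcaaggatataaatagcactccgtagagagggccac
Cyp8b1: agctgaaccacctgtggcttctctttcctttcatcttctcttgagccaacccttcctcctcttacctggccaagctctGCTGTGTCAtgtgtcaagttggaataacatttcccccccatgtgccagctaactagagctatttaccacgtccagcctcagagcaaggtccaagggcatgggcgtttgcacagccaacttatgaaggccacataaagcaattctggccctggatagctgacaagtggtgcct
Srebf1 holds a CCAAT box and 2 GC boxes, Nr0b2 a GC box and an E-box, and Scd and Cyp8b1 the letters of the antioxidant element once each. The sterol regulatory element TCACNCCAC is in none of the 4 windows. Over the 27457 promoters of the table, 34.3% held CCAAT, 32.4% the GC box, 5.79% the E-box, 10.2% the antioxidant element and 0.976% the sterol element. Of the 62 passing genes chosen by the naming rule or for the 32-probe set that have a promoter in the table, 27, 31, 6, 7 and 0 held them. These are descriptions of letters in short windows.

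Agxt, Acot1 and Cpt1b were among the leading rises, and Acnat2 and Acnat1 among the leading falls. Agxt, which detoxifies glyoxylate, rose by 1.27 (standard error 0.29, adjusted p = 0.0177), with a Ch median of 1.15 (−0.40 to 2.59), a ChGENE median of 2.60 (2.17 to 3.05) and a ChHAYW median of 2.27 (1.66 to 2.89). The lowest kiwifruit rat was above 6 of the 8 Ch rats. The acyl-CoA thioesterase Acot1 rose by 0.91 and Cpt1b, the muscle type carnitine palmitoyltransferase, by 0.90. Another probe of Cpt1b, above background on 0 arrays, had −0.03. Of the 16 genes above background in the list of PPAR-alpha targets, Acot1 was the only one to pass, 10 of the 14 that moved the same way were higher, and the median was 0.17. Fgf21 (0.82), Pdk4 (0.63) and Ppara itself (0.44) did not pass. In the list of mitochondrial fatty acid oxidation 0 of 16 passed and the median was 0.01. Acnat2 and Acnat1, peroxisomal enzymes that join fatty acids to taurine, fell by 1.34 and 1.33 (adjusted p = 0.0177 and 0.0183). Their Ch rats lay at 3.23 to 4.59 and 2.94 to 4.35 and 11 of the 16 kiwifruit rats of each lay below that range. These genes are close relatives that lie near each other (chr5:68548767-68553019 and chr5:68589330-68597167 on GRCr8), so their probes may bind both transcripts.

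**Figure D4:**
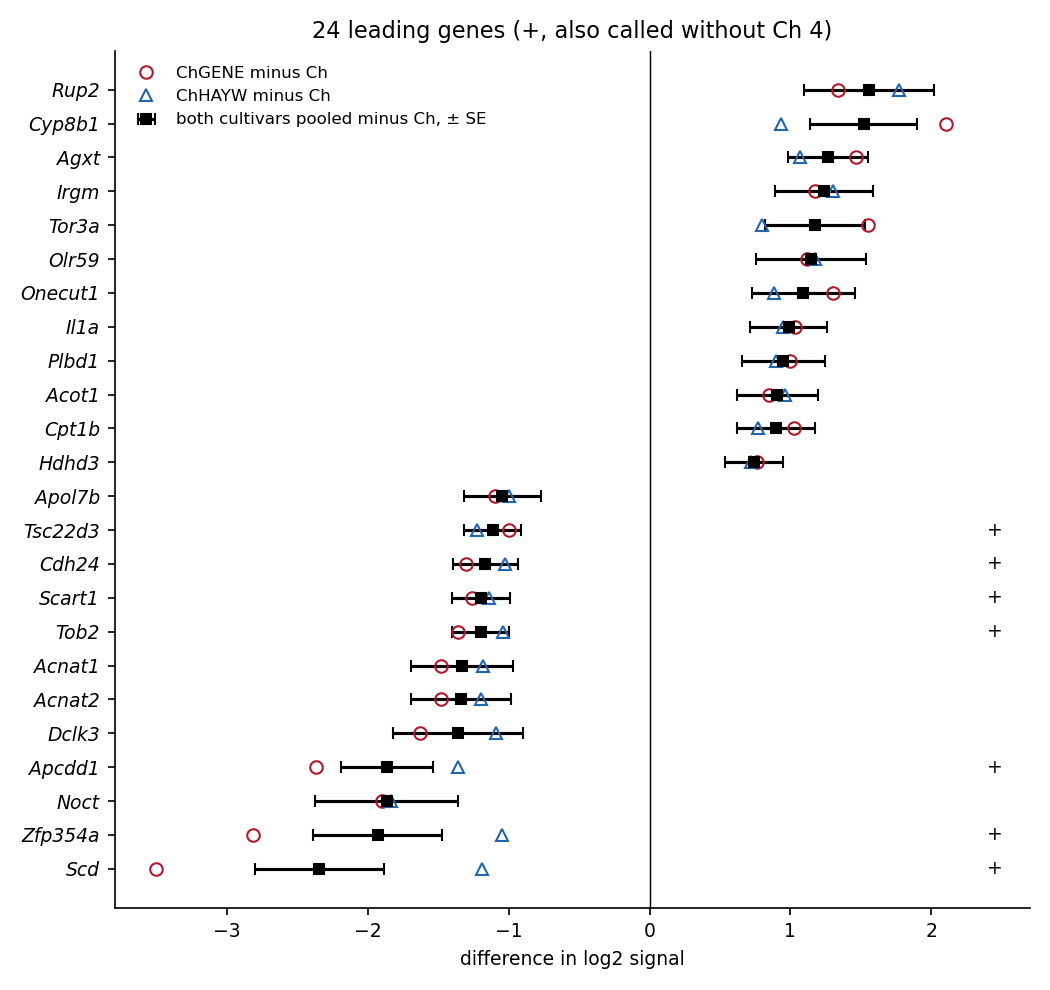
The 12 largest rises and 12 largest falls, ranked by the smaller of both cultivar differences: pooled difference with its standard error (squares), ChGENE minus Ch (circles) and ChHAYW minus Ch (triangles), all in log2 units on the x axis. A plus marks the 7 genes that also passed without Ch 4; these were all falls, and the 12 rises had adjusted p from 0.0522 to 0.103 there.

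Noct, Tsc22d3 and Tob2 fell. Noct (nocturnin), a rhythmic phosphatase, fell by 1.90 in ChGENE and 1.83 in ChHAYW (pooled adjusted p = 0.0187), and its adjusted p was 0.0503 without Ch 4. Its levels were −3.00 to 1.36 in Ch (median −0.35), −3.87 to −1.02 in ChGENE (median −3.27) and −4.19 to −1.40 in ChHAYW (median −2.68), and 7 of the 16 kiwifruit rats lay below the Ch range. In the clock list, 2 of the 11 genes above background fell and 0 rose, with a median of −0.19. These were Tef (−0.88) and Bhlhe40 (−0.76), while the core activator Bmal1 had 0.89 and just missed the threshold (adjusted p = 0.05002). The sources used here do not give the hour of dissection. Tsc22d3, known as GILZ, fell by 1.11 (standard error 0.20, adjusted p = 0.0142). It stood at 2.42 to 3.46 in Ch (median 2.88), 1.32 to 2.73 in ChGENE (median 2.00) and 0.88 to 2.68 in ChHAYW (median 1.70), with 13 of 16 kiwifruit rats below all Ch rats. Tob2 fell by 1.20, with all 8 ChGENE rats and 6 ChHAYW rats below the Ch range. The transcription factor Cebpb fell by 0.89 and the mRNA decay factor Zfp36 by 0.82, the latter 1 of 10 immediate early genes above background and the only one to pass (list median −0.09). Among 15 genes of the endoplasmic reticulum stress response 1 fell, the degradation factor Edem1 (−0.59), with a list median of −0.06, and 0 of 13 heat shock chaperones passed (median 0.01).

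The Wnt-related genes Apcdd1 and Sp5 fell with both cultivars. Apcdd1, a membrane inhibitor of Wnt signalling, fell by 1.87 (standard error 0.33, adjusted p = 0.0142), with a Ch median of −0.74 (−2.59 to 0.92), a ChGENE median of −3.04 (−4.16 to −1.86) and a ChHAYW median of −2.12 (−2.57 to −1.52). The lowest Ch rat overlapped with the Hayward rats, and 6 ChGENE rats lay below it. A second probe of Apcdd1, above background on 3 arrays, also passed (−1.59, adjusted p = 0.00408). Sp5, a transcription factor induced by Wnt signals, fell by 0.56, and 15 of 16 kiwifruit rats lay below all Ch rats. Among other genes of cell contact and structure, Cdh24 fell by 1.17 and Lmnb1 by 1.02. Scart1 fell by 1.20, with all 8 ChGENE and 7 ChHAYW rats below the Ch range of −1.78 to −0.35. Zfp354a, a zinc finger protein, fell by 2.81 in ChGENE and 1.05 in ChHAYW (adjusted p = 0.35 for the cultivars). Igfbp2, which binds insulin-like growth factors, fell by 1.29, with −1.90 in ChGENE and −0.68 in ChHAYW. Its second probe had a like pooled value (−1.25). Igfbp2 was the only one of 14 genes above background in the growth hormone and IGF list to pass (median −0.01). It did not pass without Ch 4, with quantile normalization or with cyclic loess. Dclk3, a doublecortin-like kinase, and Apol7b, an apolipoprotein L, fell by 1.36 and 1.05. A second probe of Apol7b had 0.45 and did not pass.

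The glucose transporters Slc2a1 (GLUT1) and Slc2a2 (GLUT2) fell, Slc2a1 by 0.69 (adjusted p = 0.0142) and Slc2a2 by 0.55 (adjusted p = 0.0202). For Slc2a1 all 8 ChGENE rats, at −1.47 to −0.96, lay below the Ch range of −0.66 to 0.03, and 5 ChHAYW rats did. In the list of gluconeogenesis, glycolysis and glycogen, 3 of 15 fell and 1 rose, with a median of −0.20. The glycolytic enzyme Gpi had −0.42, and pyruvate carboxylase (Pc) rose by 0.42. Of 19 genes of amino acid breakdown and the urea cycle above background, 4 fell (21.1%, against 5.09% of all genes) and 0 rose, with a median of −0.25. Prodh, the proline dehydrogenase, fell by 1.06 at 1 probe, by 1.63 in ChGENE and 0.49 in ChHAYW, while its other probe had opposite signs in the cultivars (−1.11 and 0.25). Arginase 1 (Arg1) fell by 0.49.

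In 3 lists of detoxification genes 1 of 14, 3 of 15 and 2 of 13 passed, which is 7.14%, 20.0% and 15.4% against 5.09% of all genes. In the list of cytochrome P450 families 1 to 3, 14 genes were above background, and all 9 that moved the same way went down, but only Por, the reductase that feeds electrons to these enzymes, passed (−0.70, adjusted p = 0.0407). The list median was −0.45, made up of −0.74 in ChGENE and −0.18 in ChHAYW. The difference of these list medians was not tested. Among 15 conjugation enzymes above background 3 fell and 0 rose (median −0.21, with −0.51 in ChGENE and −0.12 in ChHAYW). Ugt1a6, a glucuronosyltransferase, fell by 0.68, with all 8 ChGENE and 7 ChHAYW rats below the Ch range. With quantile normalization it had −0.36 and did not pass. Sult1e1, the estrogen sulfotransferase, fell by 0.75. Of 13 antioxidant genes above background 2 fell, Gpx4 by 0.64 and Sod1 by 0.38 (median −0.18). A second probe of Gpx4 had −0.25 and did not pass, and with spike-in scaling Sod1 turned to 0.14.

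Single immune genes rose. Irgm, an interferon-induced GTPase, rose by 1.24 (standard error 0.35, adjusted p = 0.0210), and its levels were −3.65 to −0.96 in Ch (median −1.78), −1.74 to 0.34 in ChGENE (median −1.38) and −1.95 to −0.05 in ChHAYW (median −1.06). All groups overlapped. Il1a, the interleukin-1 alpha gene, rose by 0.99 at a probe where 11 of 16 kiwifruit rats lay above the Ch range, but its second probe had 0.17. Of 12 interferon response genes above background 0 passed, and the list median was 0.13. Isg15 had the largest pooled difference of them, 1.31, with a wide spread in the kiwifruit groups (−2.15 to 4.89 in ChGENE and −1.18 to 4.50 in ChHAYW, adjusted p = 0.234). Rup2 gave conflicting probes, since one rose by 1.56 and the other fell by 0.57, both past the threshold. Further large rises were those of Onecut1 (HNF6, a hepatocyte transcription factor, 1.09), Tor3a (a torsin of the endoplasmic reticulum, 1.17), Plbd1 (a phospholipase B-like protein, 0.95), Hdhd3 (a hydrolase family member, 0.74) and the olfactory receptor gene Olr59 (1.15). A second probe of Hdhd3 had 0.17 and did not pass.

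More matrix genes rose than fell. Of 22 listed genes 15 were above background, 4 rose and 1 fell, and the median was 0.32. Loxl2 rose by 0.77 (standard error 0.16, adjusted p = 0.0167), with −1.73 to −0.59 in Ch (median −1.60), −1.14 to −0.08 in ChGENE (median −0.55) and −1.12 to −0.44 in ChHAYW (median −0.77). Ch was split, since 2 of its rats lay among the kiwifruit rats and the other 6 below all of these. Ltbp4, which binds latent TGF-beta, rose by 0.62, with 0.91 in ChGENE and 0.33 in ChHAYW. It did not pass without Ch 4, with quantile normalization or with cyclic loess. Col1a2 rose by 0.49 and the protease Mmp2 by 0.47, while Col1a1 fell by 0.48, so the chains of type I collagen went opposite ways. Whole liver also holds cells other than hepatocytes, and a shift in cell numbers cannot be told apart from a change per cell in such samples. Of 12 macrophage markers above background, 9 moved the same way and all 9 were higher, with a median of 0.45, but 0 passed. Their signals, linear and relative to the array's percentile, summed to 58.6 to 152 in the Ch rats, 56.3 to 265 in the ChGENE rats and 61.5 to 192 in the ChHAYW rats. Of 9 stellate cell markers above background 0 passed (median 0.13), with sums of 5.24 to 6.97, 5.54 to 11.6 and 5.43 to 6.51. The defining macrophage markers Cd68 and Clec4f and stellate cell markers Lrat and Pdgfrb were above background on all 24 arrays. The part of these cells in the matrix and immune results was not tested.

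Other markers gave little. Of the markers above background 0 of 4 passed for T and natural killer cells (median 0.10), 0 of 2 for B and plasma cells (−0.02), 0 of 2 for neutrophils (−0.23), 0 of 9 for sinusoidal endothelium (−0.09), 0 of 2 for cholangiocytes (0.05) and 0 of 2 for adipocytes and exocrine pancreas (−0.03). Among 5 erythroid markers 1 fell, the anion exchanger Slc4a1 (−1.05), with a median of −0.26. The B cell marker Ms4a1 and the pancreatic markers Prss1 and Pnlip were above background on 0 arrays. The neutrophil markers spread most widely in ChGENE. Their sum was 0.826 to 34.6 in ChGENE against 1.09 to 1.78 in Ch and 0.544 to 1.41 in ChHAYW.

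Several abundant hepatocyte transcripts fell, by amounts that changed with the scaling. Of 15 hepatocyte factors and products above background 6 fell and 1 rose (median −0.07), among them transferrin (Tf, −0.57), the retinol carrier Rbp4 (−0.52) and the asialoglycoprotein receptor Asgr1 (−0.43). Of 19 acute phase and coagulation genes 5 fell and 0 rose, with a median of −0.27 that moved to 0.02 with quantile normalization. Haptoglobin (Hp) had −0.63 with the 75th percentile and −0.06 with quantile normalization, and Itih4 −0.57 and −0.15. Of 20 cytosolic ribosomal protein genes 2 fell (10%, against 5.09% of all genes), Rplp0 (−0.47) and Rpsa (−0.52, with −0.17 and no call at its second probe), and all 16 that moved the same way were lower (median −0.19, but 0.06 with quantile normalization). In the oxidative phosphorylation list 1 of 20 fell, Ndufa4 (−0.38), with a median of −0.01. Of 20 proteasome genes 0 passed (median 0.08), and of 6 genes of mitosis and DNA replication above background thymidylate synthase (Tyms) rose by 0.43 (median 0.34). With spike-in scaling Asgr1, Rplp0, Rpsa and Ndufa4 turned to values from 0.00 to 0.14, and the median of each of the 35 lists was above 0.

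**Figure D5:**
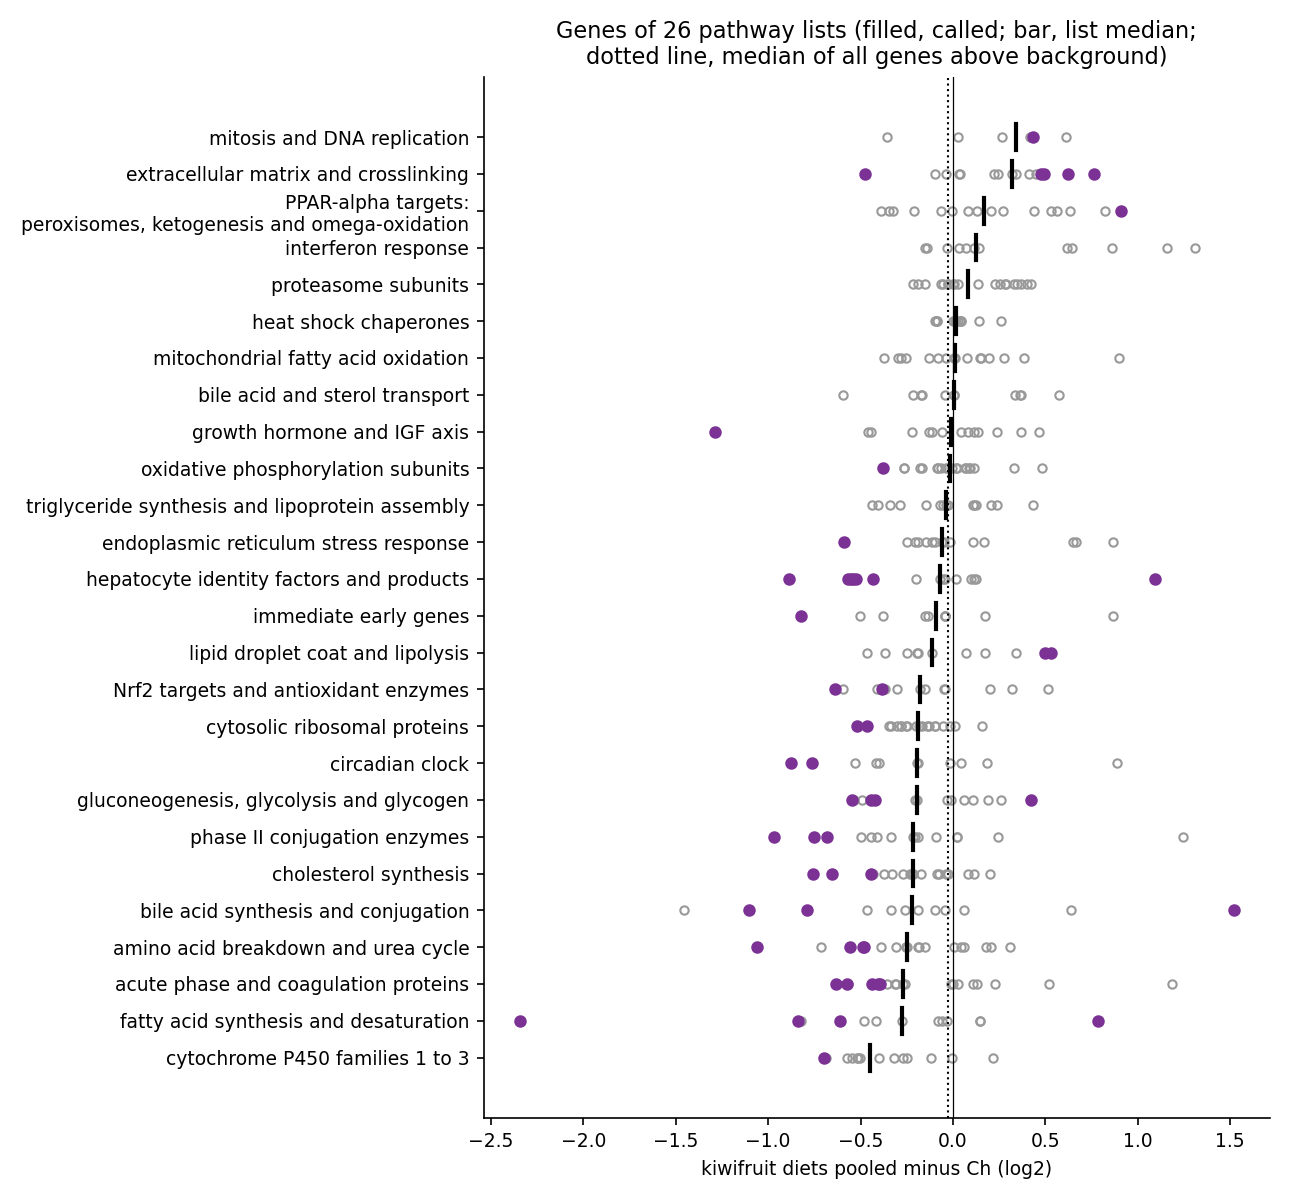
Pooled kiwifruit minus Ch difference (log2, x axis) of each gene above background in 26 pathway lists (y axis); filled points passed with the same sign in both cultivars, bars are list medians and the dotted line is the median of all genes above background, −0.03. Fatty acid synthesis, P450 and acute phase genes have medians of −0.28, −0.45 and −0.27, and matrix genes 0.32.

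The falls were not spread evenly over signal levels. When the probes above background were divided by mean level into 4 bins of like size, 99, 105, 123 and 302 of the falls lay in the dimmest to the brightest bin, and 59, 57, 29 and 15 of the rises. The median difference of the brightest bin was −0.12, against −0.03, 0.02 and −0.02 in the others.

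Cgref1, a cell growth regulator that the naming rule also takes in, was not above background on all arrays and is no member. Its pooled difference was 1.46 (adjusted p = 0.0254), with 2.66 in ChGENE and 0.27 in ChHAYW. All 8 ChHAYW rats lay within the Ch range, and 6 ChGENE rats lay above it.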

How the data were processed

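Liver RNA of 24 rats was measured on 1-colour Agilent rat arrays. The authors scanned the arrays and extracted intensities with Feature Extraction, and the deposited intensities are linear, detrended within each array by that software and not scaled between arrays. The deposited value table repeated these intensities, and 0 spots differed. From the intensities, spots marked as outliers were left out, log2 signals of a probe's spots were averaged, and each array's 75th percentile over 30367 non-control probes was subtracted. Above background means that a share of at least 0.5 of a probe's spots was so marked by the software.

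limma 3.58.1 (lmFit and eBayes, R 4.3.3) was fitted with 1 mean per diet to all 24 arrays, and the mean of ChGENE and ChHAYW was set against Ch, adjusted over all probes. The samples were grouped by their titles. The methods name Student's t-test, which was an alternative. The alternatives were another background correction (normexp with an offset of 50), 5 other scalings, filters, weights, the slide or the replicate number as a block, the array signal as a covariate, each rat left out and, added after the data were seen, the closest 2 arrays of each diet averaged. The fit was also run on simulated data with known changes and independent noise on each array. That simulation held no dim array, close array pair or slide effect, so it cannot show how these affect the calls. Symbols were updated through RefSeq (GRCr8) for 19211 probes by accession, 2978 by symbol and 448 by synonym. List genes were represented by their brightest probe, and 5 had none.

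The members, the 26 pathway and 9 marker lists and the tests were chosen with earlier results of these data known. The genes named are the 12 largest rises and 12 largest falls, from each list the 2 passing members with the smallest p (or, where none passed, the same-sign member with the smallest p), and genes that the study gives for both cultivars. The members of the 32-probe set and other genes were named after their values were seen. Some genes that these rules name are not reported here.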

Additional observations from a re-analysis of the deposited data

Results flagged for a closer look

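Single rats stood apart from the other 7 of their diet at 9 of the 267 sets of 8 rats examined, by a gap that is large for the range of the group. Chance alone flags about 1 in 20 such sets. All 9 stood above their group. Ch 7 had a level of 1.296 for Rup2, against −0.55 in the next Ch rat, and 6.29 for Ndufa4, against 5.98. Ch 4 had −1.74 for Mcf2l, against −2.45, and Ch 6 had 0.0794 for Tapt1, against −0.89. ChGENE 2 had −0.33 for Apol7b, against −1.34, and 8.77 for Rplp0, against 8.37. ChHAYW 8 had 1.47 for Hdhd3, against 0.84, and −1.63 for Cgref1, against −2.88. ChHAYW 3 had −2.83 for Sp5, against −3.26. Ch 4, ChGENE 2 and ChHAYW 3 were the dimmest arrays of their diets, and the part of this in the values was not tested.

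The cultivars differed, by limma's test of ChGENE minus ChHAYW, for Tsc22d1 (1.56, adjusted p = 0.0397) and Cdr2 (1.14, adjusted p = 0.0426), both also past the pooled test.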

How the results depend on the processing

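The shared response had 160 probes higher and 629 lower in the analysis reported. Other background correction gave 1049 lower (normexp), and other scalings gave 9 and 37 (quantile), 98 higher (median), 252 and 283 (75th percentile of probes above background), 9 and 44 (cyclic loess) and 138 higher and 2 lower (spike-in RNAs). The share of higher calls was 20.3% here, 10.2% with the median, 47.1% with the percentile of bright probes and 98.6% with the spike-ins. Counts were 87 and 402 over bright probes alone, 363 and 965 with the slide as a random block, 322 higher with array weights, and 2 and 1 with the array signal as a covariate, which shared 1 probe with the 789. The slide block cannot remove a slide effect, because each diet had a slide of its own. Its estimated correlation was −0.04, so its higher counts say nothing about the slides. Over all probes 4262 passed, against 14160 with normexp, 5770 with the median, 2907 with the bright percentile, 7288 with the random slide block, 2822 with the replicate block, 323 with spike-ins, 86 with loess, 73 with quantile and 3 with the covariate. The methods' t-test gave 740 same-direction probes after adjustment and 1414 before. The cause of these shifts was not tested.

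With the closest 2 arrays of each diet averaged, an alternative chosen after the data were seen, 47 probes passed as higher, 290 as lower and 2796 of all probes. Leaving out 1 rat gave 7 to 291 higher and 55 to 896 lower. The lowest counts came without Ch 4, followed by 46 and 225 without Ch 7, and the highest without Ch 3. Higher counts also fell by over 1.5 times without Ch 2 (101) and ChHAYW 6, 7 and 8 (102, 99 and 98). The replicate block, with the replicate numbers of the labels, gave 85 and 396. These numbers equal the position of each array on its slide, so the block is also a block of slide positions. Deviations of same-numbered arrays of different diets had r from −0.42 to 0.49, over 0.1 in 8 of 24 pairs. Of the 24 arrays, 1 matched best with an array of its own number.

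With spike-in scaling these genes turned from below to above 0: Sod1 (0.14), Ndufa4 (0.14), Rplp0 (0.0551), Rpsa (0.0013), Asgr1 (0.0901), Qpctl (0.0739), Fkbp9 (0.0561), Mindy2 (0.0367), Gpat4 (0.0078) and, among genes that had not passed, Apoc2 (0.18), Etfb (0.15), Lrat (0.21), Pax5 (0.20), Sox9 (0.19) and Ctrb1 (0.42). Ctrb1 also turned with array weights (0.0315), with the covariate (0.25) and without Ch 4 (0.0273), with −0.143 to 0.0273 over all rats left out, and Pax5 with the covariate (0.0031). A tally over all alternatives covers the genes that the naming rules select and those of the 32-probe set, less those not reported. Of its values 2973 kept direction and side of the threshold, 501 lost the call, 34 gained it and 19 turned. The alternatives reuse the same arrays, and the 32-probe set was chosen for passing in some of them. The number of kept values is therefore largely built in and is no separate support. The small number of rats limits what could pass, and signal near background limits the dim probes.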
